A study of Mus musculus with 41 samples.

Results

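The data described here are 3 bisulfite sequencing samples of mouse Th2 cells named Mock, sgGata3-1 and sgGata3-2. They were chosen as the samples of the experiment with guide RNAs against Gata3, 3 of the 27 bisulfite samples of the Il4 locus and of 41 samples in the series. The study follows how DNA methylation is lost at Il4 while naïve CD4+ T cells become Th2 cells, and which proteins this needs. Guide RNAs against Gata3 address whether the methylation pattern of Il4 differs when the transcription factor of Th2 cells is targeted. All 3 samples are from C57BL/6 mice, aged 8 to 16 weeks per the methods. Mock carries the genotype label wild type and both guide samples the label Gata3-KD, with no treatment named, and each is 1 library taken after the first cycle of differentiation. The labels do not say what Mock received, and the paper names the control of this experiment both as empty vector and as control guide RNA, with transduction or electroporation for the bisulfite data. That cycle was 2 days on antibodies to CD3 and CD28 with 1000 U/ml IL-4 and 1 µg/ml of antibody to IFN-γ, followed by 3 days in 20 U/ml IL-2. In the methods for transduction, naïve cells of mice expressing Cas9 received a retrovirus with the guide and a blue fluorescent protein after 24 h, and cells positive for it were sorted on day 6.

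GATA3 is the transcription factor that directs naïve CD4+ T cells to the Th2 fate and binds the sequence GATA on either strand, including at regulatory elements of the cytokine genes Il4, Il5 and Il13. TET enzymes oxidise 5-methylcytosine (5mC) to 5-hydroxymethylcytosine (5hmC) and beyond, a route by which methylation is lost. Bisulfite sequencing reads 5mC and 5hmC as C and all other forms of cytosine as T, so a level here is the sum of both marks.

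Each library covered 64 CpGs on the minus strand of chromosome 11 (mm9), numbered along the direction of Il4 transcription. CpGs 1 to 17 lie in the upstream element CNS1 and CpGs 18 to 21 in the promoter (53432389 to 53432583), while exon 1 holds CpGs 22 to 28 (53431960 to 53432290). CpGs 29 to 37 lie in intron 1 and exon 2 (53431630 to 53431948), CpGs 38 to 42 in the 3′ region of the hypersensitive site HSII in intron 2 (53430150 to 53430347), CpGs 43 to 47 at exon 3 (53427375 to 53427537) and CpGs 48 to 64 in the downstream element CNS2. The deposited counts came to 12584559 in Mock, 11674957 with sgGata3-1 and 12781354 with sgGata3-2, with a median of 12574, 14441 and 16946 reads per CpG. Exon 1 was read least deeply, with 227 to 2392 reads per CpG, and each other region had at least 4766. At cytosines that are not in a CpG, T made up 99.8% of reads in every library, so conversion was alike in all 3. With 1 library per group there is no check between replicates, and all intervals below are 95% intervals for the counting of reads. PCR copies were not told apart by molecular identifiers, so reads are not independent molecules and the intervals cover no other error.

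Cas9 cuts 3 bases before the NGG motif that follows the target of a guide, and small deletions or insertions there can shift the reading frame. The targets of both guides are printed because their place in Gata3 determines which part of the protein a frameshift would spare. On mm9 each has 1 perfect site with an NGG motif (in capitals), on the minus strand of chromosome 2, at chr2:9799015-9799034 for sgGata3-1 and chr2:9796041-9796060 for sgGata3-2.
sgGata3-1: ctactacggaaactccgtcaGGG
sgGata3-2: ccgggttcggatgtaagtcgAGG

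The first guide cuts in exon 2 of Gata3 after 199 of 1329 coding bases (15%) and the second in exon 3 after 747 (56.2%), so the guides are independent reagents against separate exons. The libraries hold methylation counts alone. Whether GATA3 was lost, and in what share of the sorted cells, cannot be checked from them, and each level averages over edited and unedited alleles. The paper itself reports lower Gata3 transcripts by qRT-PCR and less IL-4 in cells given a Gata3 guide. It calls its methylation result for this experiment representative of independent experiments.

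In Mock cells the locus had the uneven pattern of Th2 cells after a first cycle, with high levels in exon 3, intermediate levels from CNS1 to HSII and little methylation in CNS2. The mean level in Mock, sgGata3-1 and sgGata3-2 was 57.3%, 69.4% and 70.1% in CNS1, 29.6%, 41.6% and 38.1% in the promoter, and 67.3%, 84.1% and 84.6% in exon 1. In intron 1 and exon 2 it was 74.6%, 90.4% and 87.0%, and in the 3′ region of HSII 62.5%, 80.8% and 78.4%. The levels were 96.4%, 96.1% and 96.3% in exon 3 and 6.56%, 9.45% and 9% in CNS2. Thus both guides gave more methylation than Mock in every region but exon 3. With sgGata3-1 the difference was 12 points in CNS1 (95% interval 11.8 to 12.3), 12 in the promoter (11.6 to 12.4), 16.7 in exon 1 (15.3 to 18.2), 15.8 in intron 1 and exon 2 (15.5 to 16) and 18.3 in the 3′ region of HSII (17.7 to 18.9). With sgGata3-2 it was 12.8 (12.5 to 13), 8.53 (8.10 to 8.95), 17.3 (15.9 to 18.7), 12.4 (12.1 to 12.6) and 15.9 points (15.3 to 16.5) in the same order. Exon 3 differed from Mock by -0.300 and -0.109 points and CNS2 by 2.89 and 2.45 points. Means weighted by reads gave smaller differences in CNS2, 1.19 and 0.533 points, and in CNS1, 8.29 and 8.37 points. Each library was weighted by its own reads, so these differences also carry differences in coverage between libraries. In CNS2, CpG48, at 74.4% in Mock, had 35513 reads in Mock, 26563 with sgGata3-1 and 28830 with sgGata3-2. CpG53, at 0.177% in Mock, had 11312, 13390 and 15029 reads in the same order.

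**Figure D1:**
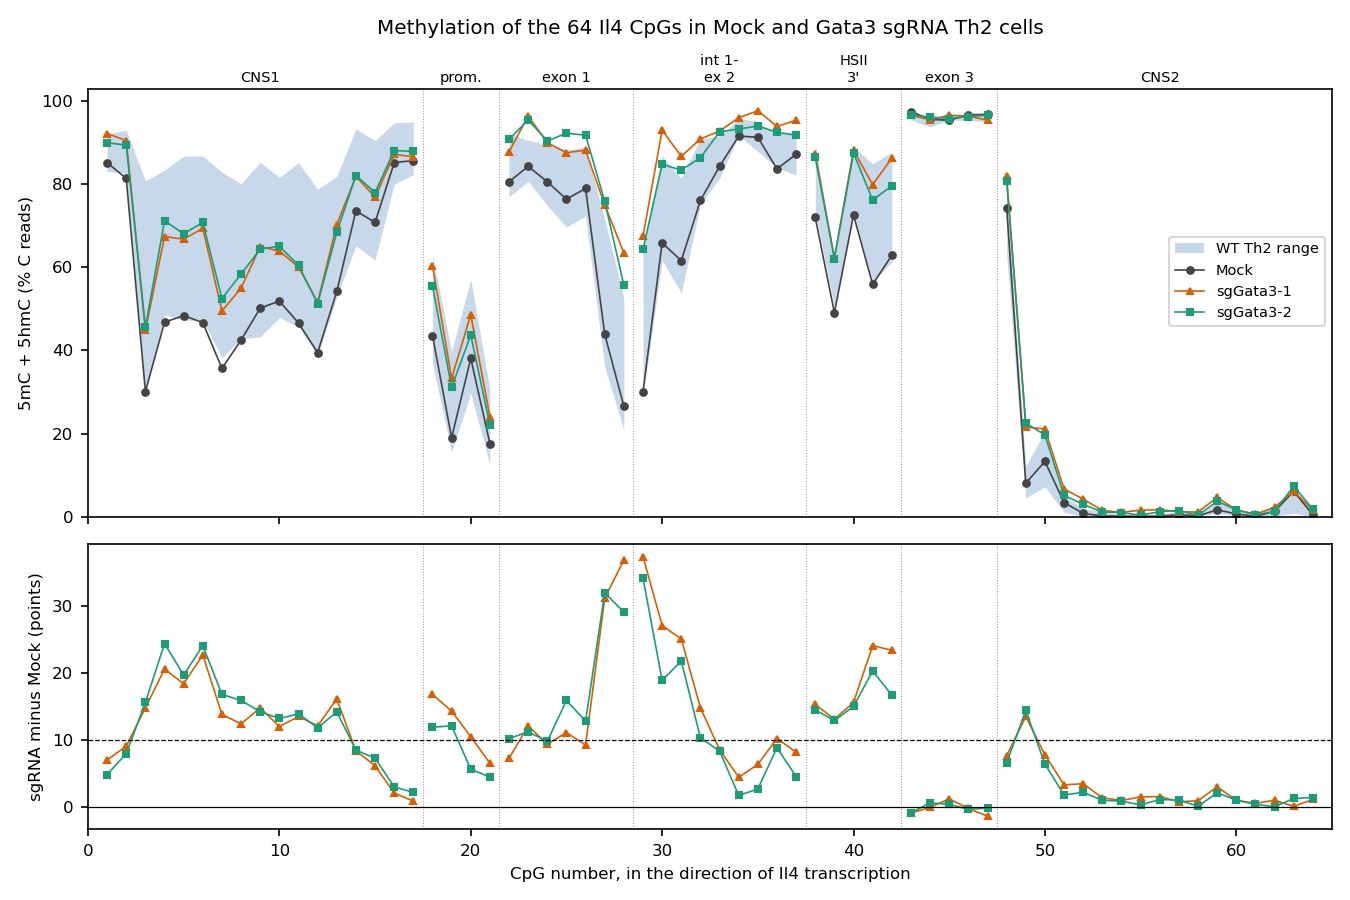
Level of 5mC + 5hmC at the 64 CpGs of Il4 in Mock, sgGata3-1 and sgGata3-2 cells (top) and the difference of each guide from Mock (bottom). Blue bands show the lowest to the highest level in the other WT Th2 libraries of the first cycle. The dashed line marks 10 points.

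Single CpGs were compared by Fisher's exact test on the C and T reads, adjusted by the Benjamini-Hochberg method, with a minimum difference of 10 points. Both guides were compared with one Mock library, so these comparisons are not independent. With sgGata3-1, 29 of 64 CpGs (45.3%) were called higher than in Mock and 0 lower. With sgGata3-2, 29 (45.3%) were called higher and 0 lower. The CpGs called with sgGata3-1 and sgGata3-2 numbered 11 and 11 of 17 in CNS1, 3 and 2 of 4 in the promoter, and 4 and 6 of 7 in exon 1. Intron 1 with exon 2 had 5 and 4 of 9, and the 3′ region of HSII 5 and 5 of 5. In CNS2, CpG49 alone of 17 was called for either guide, and in exon 3 none of 5. The differences thus lie across CNS1 and the 5′ part of the gene. Fisher's test on reads this deep calls small differences too: on the adjusted p alone, without the minimum, it called 62 CpGs (96.9%) for sgGata3-1, 59 higher and 3 lower, and 61 (95.3%) for sgGata3-2, 59 higher and 2 lower. It compares these libraries, not the conditions.

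The largest differences stood where exon 1 meets intron 1. CpG27 and CpG28 are the last CpGs of exon 1 and CpG29 is the first of intron 1, within 98 bases. In naïve cells this stretch is almost fully methylated, and in Th2 cells it is lower than the CpGs around it. In Mock, sgGata3-1 and sgGata3-2, CpG27 had 43.9% (Wilson interval 41.5% to 46.2%), 75.0% (73.1% to 76.8%) and 75.9% (74.1% to 77.6%). CpG28 had 26.6% (24.5% to 28.7%), 63.5% (61.4% to 65.5%) and 55.7% (53.6% to 57.7%), and CpG29 30.1% (29.5% to 30.8%), 67.5% (66.9% to 68.1%) and 64.3% (63.8% to 64.9%). All 3 CpGs were called higher for each guide (Fisher), by 31.2 and 32 points at CpG27, 36.9 and 29.1 at CpG28 and 37.4 and 34.2 at CpG29. The reads behind these levels numbered 1690 to 2343 at CpG27 and CpG28 and 20143 to 28235 at CpG29. The difference was smaller toward either end of these amplicons. At CpG22, the first CpG of exon 1, the levels were 80.6%, 87.8% and 90.8%, a mean difference of 8.70 points from 227 to 358 reads, and at CpG34 in exon 2 they were 91.6%, 96% and 93.3%, a mean difference of 3.04 points.

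The sequence from CpG27 to CpG29 is printed because it holds the largest differences, with CG and GATA (TATC on the other strand) in capitals. It is the minus strand of mm9 at chr11:53431916-53432013 and holds 3 GATA motifs. Of the windows of that length on chromosome 11, 40.2% hold at least 1 GATA and 2.83% at least 3, and the match is a description of the sequence alone.
CpGs 27 to 29: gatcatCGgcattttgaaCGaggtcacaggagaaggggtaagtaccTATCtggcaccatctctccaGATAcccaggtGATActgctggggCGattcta

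HSII lies in intron 2 of Il4, and its 3′ region was the only one in which all CpGs were called for both guides. The Mock levels at CpGs 38, 39, 40, 41 and 42 were 72.0%, 49.1%, 72.6%, 55.9% and 62.9%. They were 87.3%, 62.3%, 88.2%, 79.9% and 86.3% with sgGata3-1, and 86.5%, 62.1%, 87.5%, 76.2% and 79.6% with sgGata3-2, on 4780 to 14825 reads. CpG41 differed most from Mock, by 24.1 (22.4 to 25.7) and 20.3 points (18.6 to 21.9), and CpG39 least, by 13.1 (11.9 to 14.4) and 12.9 points (11.8 to 14.1). The region thus differed along its whole length. Its sequence, the minus strand of mm9 at chr11:53430170-53430326, is printed with the same capitals for this reason. It has 1 GATA, and 55.6% of windows of its length on chromosome 11 hold at least 1.
CpGs 38 to 42: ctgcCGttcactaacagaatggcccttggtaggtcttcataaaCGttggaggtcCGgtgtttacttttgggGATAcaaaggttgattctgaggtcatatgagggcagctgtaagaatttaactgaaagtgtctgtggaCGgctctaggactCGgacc

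CNS1 is a conserved element upstream of Il4 with Th2-specific accessibility. Its differences from Mock were largest in the 5′ amplicon and small at the 3′ end. In Mock, sgGata3-1 and sgGata3-2, CpG6 had 46.7% (45.9% to 47.5%), 69.4% (68.6% to 70.1%) and 70.8% (70.1% to 71.5%), a mean difference of 23.4 points. CpG17 had 85.7%, 86.6% and 87.9%, a mean difference of 1.5 points, with counts at their upper limit. Within the element, CpGs 3 to 13 were called for each guide, and CpGs 1, 2 and 14 to 17 were not. The stretch from CpG3 to CpG8, printed because it includes the largest differences of CNS1, is the minus strand of mm9 at chr11:53440568-53440674, with 1 GATA (as TATC), which 42.9% of windows of its length hold.
CpGs 3 to 8: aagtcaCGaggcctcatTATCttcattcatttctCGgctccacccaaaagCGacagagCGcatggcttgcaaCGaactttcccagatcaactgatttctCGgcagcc

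The promoter, exon 3 and CNS2 had mean differences of 10.3, -0.204 and 2.67 points (both guides against Mock), the smallest of the 7 regions in unweighted means. With means weighted by reads CNS1 was below the promoter for each guide. The promoter of Il4 is partly methylated in naïve cells already, exon 3 is methylated alike in naïve, WT Th2 and TET iTKO cells, and most CpGs of CNS2 have little methylation. In Mock, sgGata3-1 and sgGata3-2, promoter CpG18 had 43.6%, 60.4% and 55.5%, with the largest mean difference there, 14.4 points, and CpG21 had 17.6%, 24.1% and 22.1%, with the smallest, 5.47 points. In exon 3, CpG45 had 95.4%, 96.6% and 95.8% and CpG43 97.5%, 96.6% and 96.6%, mean differences of 0.770 and -0.925 points. In CNS2, CpG49 had 8.07% (7.80% to 8.34%), 21.6% (21.1% to 22.1%) and 22.5% (22% to 22.9%), a mean difference of 14.0 points, and CpG61 had 0.103%, 0.613% and 0.458%, with the smallest, 0.433 points. The gain in CNS2 is therefore carried mostly by its 5′ edge.

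The guides were also compared with each other, which needs no Mock library. Their levels lay close together along the whole locus. No CpG differed by 10 points or more, so 0 of 64 (0%) were called by Fisher's test with the minimum difference, and 43 had an unadjusted p under 0.05. On the adjusted p alone 43 were called (67.2%), 14 higher and 29 lower with sgGata3-2. In size the differences had a median of 1.18 points, and 61 of the 64 CpGs differed by under 5 points. Among the CpGs, picked after their values were seen, sgGata3-2 was lowest relative to sgGata3-1 at CpG30 in intron 1, with 84.8% against 93% (a difference of -8.18 points, -8.71 to -7.65), and highest at CpG25 in exon 1, with 92.3% against 87.6% (4.72 points, 2.96 to 6.5). By region, sgGata3-2 differed from sgGata3-1 by 0.748 points in CNS1 (0.504 to 0.993; 0.0752 with means weighted by reads), -3.48 in the promoter (-3.93 to -3.03), 0.534 in exon 1 (-0.513 to 1.58) and -3.42 in intron 1 and exon 2 (-3.61 to -3.22). The difference was -2.42 points in the 3′ region of HSII (-2.96 to -1.89), 0.191 in exon 3 and -0.444 in CNS2. Targeting exon 3 of Gata3 thus came with slightly lower methylation than targeting exon 2 in the promoter, intron 1 and HSII, by amounts that 1 library per guide cannot separate from differences between cultures.

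How far Th2 libraries vary among themselves sets the scale for these differences. The 7 other WT Th2 libraries of the first cycle, from 3 sets that had no guide or virus, had mean levels from 56.1% to 86.5% in CNS1 and 23.7% to 47.6% in the promoter, so that in these regions both guide libraries lie within the range of WT cells. In intron 1 and exon 2 the WT range was 74.0% to 87.4%, with sgGata3-1 above it and sgGata3-2 in it. In the 3′ region of HSII it was 63.6% to 82.5%, with both guides in it and Mock below it. A single library, Th2-BS-rep3, set the upper end in each of these regions. The next highest WT level was 76.2% in CNS1, above both guides. It was 35.2% in the promoter, 80.6% in intron 1 and exon 2 and 72.5% in HSII, below both guides. CpGs 24 to 28 of exon 1 had 56.0% to 78.2% in WT cells against 61.3% in Mock, 80.8% with sgGata3-1 and 81.2% with sgGata3-2. CNS2 had 5.08% to 7.71% in the 6 WT libraries that covered it, below both guides. At single CpGs, sgGata3-1 was above all WT libraries at 28 of 64, sgGata3-2 at 22 and Mock at 1, and Mock was below all of them at 12. Thus sgGata3-1 left the WT range mostly in exon 1 (4 of 7 CpGs), intron 1 and exon 2 (8 of 9) and CNS2 (13 of 17). For sgGata3-2 this was so mostly in exon 1 (6 of 7) and CNS2 (11 of 17), with 3 of 9 in intron 1 and exon 2. The range rests on 6 WT libraries in CNS2 and on 3 at CpG23. Without Th2-BS-rep3 both guides also lie above the WT means in the promoter, intron 1 and exon 2, and HSII. Several CpGs counted in CNS2 had low levels, near those of unconverted C. CpG55 had 0.371% with sgGata3-2 against a highest WT level of 0.202%. At single cytosines of CNS2 outside CpGs, C reached 0.973% with sgGata3-1 and 0.679% with sgGata3-2. Mock lies near the lower end of the WT range in CNS1 and in intron 1 and exon 2, and below it in HSII. Differences from Mock there are thus larger than those from most WT libraries. In CNS1 the median WT library, at 70.4%, lies above both guides, so no increase over WT cells as a whole is seen there.

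**Figure D2:**
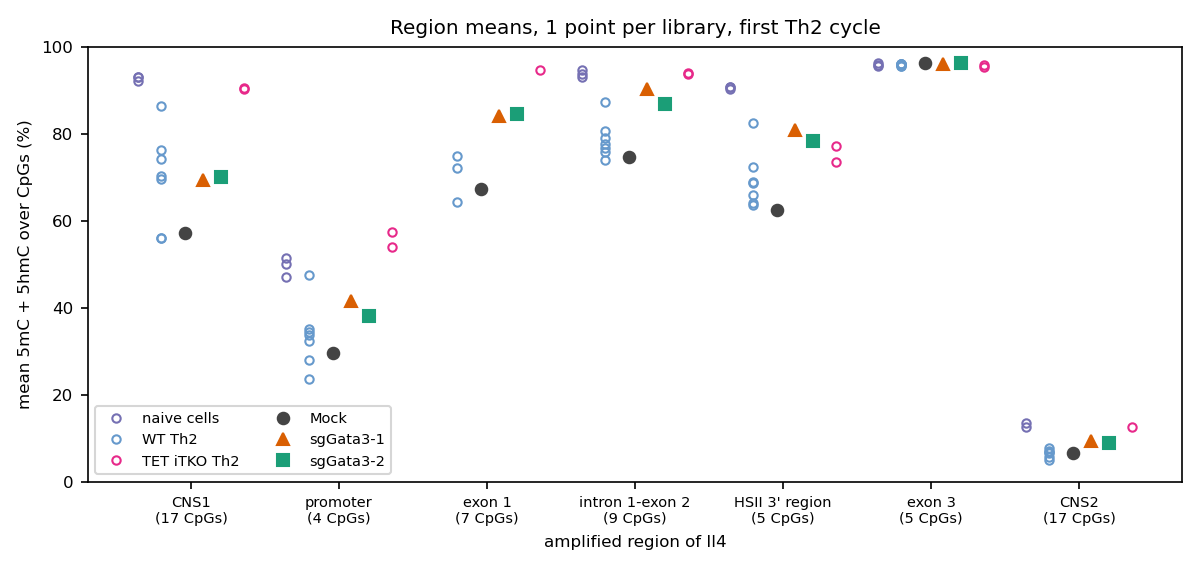
Mean level of 5mC + 5hmC per region, 1 point per library, in naïve cells, WT Th2 cells, Mock, sgGata3-1, sgGata3-2 and TET iTKO Th2 cells of the first cycle. Libraries with a CpG of the region under 100 reads are not shown there.

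For a test with a spread between libraries, each guide was compared with Mock on its own in a limma fit, chosen after seeing the data. Each fit held 22 other bisulfite libraries, of naïve cells and of Th2 cells of the first and second cycles. These Th2 cells were WT or lacked the TET genes (TET iTKO) or Tdg (TDG iKO). The spread is that within groups. Differences between the sets of WT libraries enter only the fit that takes Mock and these libraries as 1 group (below). The guides are not replicates of a condition, and each fit compares 1 library with 1, so the spread comes from the other groups and the calls assume that Mock and the guides vary like them. The fits could test 40 CpGs, none of them in exon 1 or CNS2, where some library had under 100 reads. With sgGata3-1, 8 of the 40 (20%) were called higher and 0 lower (limma, Benjamini-Hochberg), CpGs 29, 30, 31 and 32 in intron 1, CpGs 35, 36 and 37 in exon 2 and CpG42 in the 3′ region of HSII. The smallest adjusted p was at CpG30 (log2 odds ratio 2.77 ± 0.64, SE, limma adjusted p = 0.00548). With sgGata3-2, 0 of 40 (0%) were called (limma, 10 with an unadjusted p under 0.05, smallest adjusted p 0.0693). For sgGata3-1, CpGs 31, 32, 35, 36, 37 and 42 lost their calls with the first-cycle WT Th2 groups alone. With shallow libraries left out CpG by CpG, CpGs 32, 35, 36, 37 and 42 lost them. Their log2 odds ratios were the same in these fits, and CpGs 29 and 30 kept their calls in both. Some CpGs that the main fit could not test were called. With the first-cycle WT Th2 groups alone this was CpG28 in exon 1 (log2 odds ratio 2.26). With shallow libraries left out, CpGs 55 and 56 in CNS2 were called (3.92 and 3.50), at low levels of 1.57% and 1.67% with sgGata3-1. The median log2 odds ratio of the tested CpGs was 0.99 with sgGata3-1 and 0.83 with sgGata3-2. Against Mock and the 7 WT libraries as one group, these medians were 0.33 and 0.25, and limma called 5 of 40 (12.5%) for sgGata3-1, CpGs 30, 31, 35, 36 and 37, and 0 of 40 (0%) for sgGata3-2, with 3 at an unadjusted p under 0.05. In CNS1 the log2 odds ratio was then under 0 at 8 and 7 of 17 CpGs.

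The levels of naïve cells, from which Th2 cells arise, and of Th2 cells without TET proteins are set beside those of the guides. In naïve cells the mean was 92.1% to 93% in CNS1, 47.1% to 51.4% in the promoter, 93% to 94.7% in intron 1 and exon 2, and 90.3% to 90.9% in the 3′ region of HSII, above both guides in each of them. In TET iTKO cells, which lack the 3 TET genes after induced deletion, it was 90.4% to 90.5% in CNS1 and 93.7% to 94.1% in intron 1 and exon 2, and 73.5% to 77.2% in the 3′ region of HSII. In HSII the guide libraries, at 80.8% and 78.4%, thus stand above TET iTKO cells, as does the highest WT library at 82.5%, while in CNS1 they stand well below them. As differences, the mean of both guides exceeded Mock by 12.4 points in CNS1 and 17.1 in the 3′ region of HSII, where TET iTKO cells exceeded their own WT cells by 34.3 and 10.6 points.

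Across CpGs, the difference of the guides from Mock went with the methylation that Th2 cells lose. Its correlation with the difference between naïve and WT Th2 cells was 0.871 (Pearson; Spearman 0.853; 63 CpGs), and without exon 3 and CNS2 0.848 (Spearman 0.821; 41 CpGs). With the difference between TET iTKO and TET WT cells it was 0.791 (Spearman 0.826; 64 CpGs), and without exon 3 and CNS2 0.658 (Spearman 0.641; 42 CpGs). The libraries on either axis differ, but the TET WT libraries are among the WT libraries of the first relation, and neighbouring CpGs share amplicons, so these values are descriptions. HSII departs from the second relation, since its CpGs differed more from Mock with the guides than TET iTKO cells did from their WT cells. CpG63 in CNS2 departs from both, with 6.14%, 6.19% and 7.38% in Mock, sgGata3-1 and sgGata3-2 against 32.5% to 33.0% in naïve cells, a CpG picked after its values were seen.

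**Figure D3:**
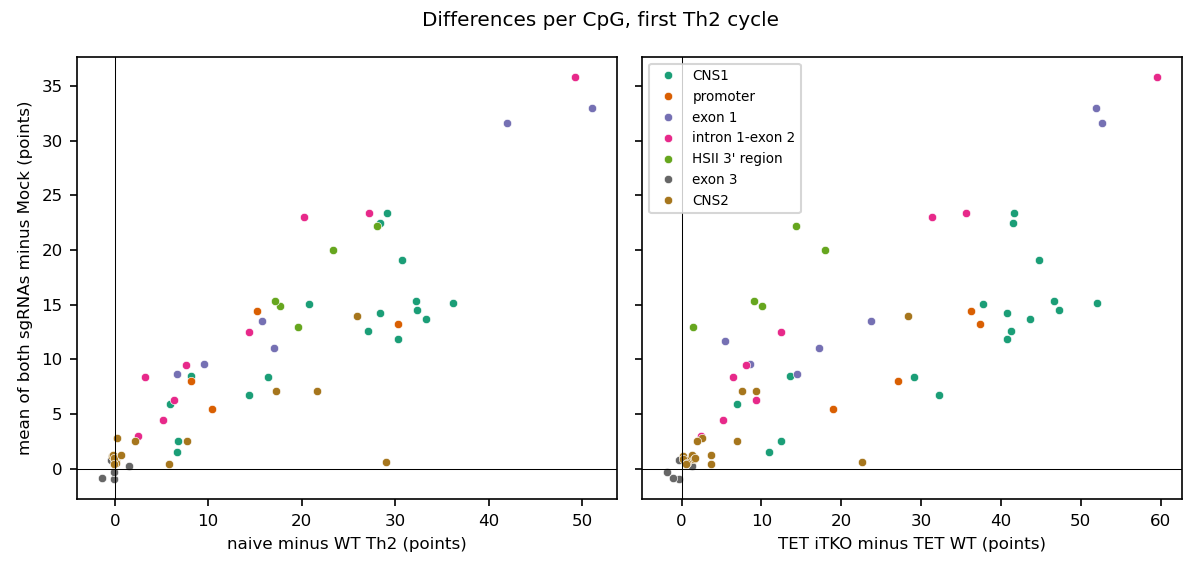
Mean difference of both guides from Mock at each CpG against the difference between naïve and WT Th2 cells (left) and between TET iTKO and TET WT Th2 cells of the first cycle (right), coloured by region.

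Whether the differences gather at GATA motifs was examined by distance, in a grouping chosen after the values were seen. The 26 CpGs within 30 bases of a GATA on either strand had a median difference of 9.14 points (mean of both guides from Mock), and the 38 farther away had 8.43 points. CpGs called for sgGata3-1 and sgGata3-2 numbered 12 and 13 of the 26 near a motif and 17 and 16 of the 38 others. These sets are unlike, with a median Mock level of 30.1% near a motif and 64.4% farther away, and 10 of the 26 lie in CNS2. Without exon 3 and CNS2 the medians were 13.3 points for 16 CpGs near a motif and 12.9 for 26 others. Differences were present at CpGs with and without a GATA nearby, and among RefSeq promoters of mouse (GRCm38.p6) 57.9% hold the motif within 300 bases.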

How the data were processed

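Bisulfite amplicon libraries of Mock, sgGata3-1 and sgGata3-2 Th2 cells were analysed, with 22 other libraries for reference. These were of naïve cells and of WT, TET iTKO and TDG iKO Th2 cells of the first or second cycle. The authors mapped reads to mm9 with BSMAP (-w 2 -v 5 -q 30) and deposited counts of C reads and of C or T reads per cytosine, not normalized and with an upper limit that was reached at 4 CpGs of each library. Members and lists were chosen with earlier results of these data known. For each CpG with at least 100 reads, the level is C reads as a percentage of C or T reads on the minus strand, and a region's level is the unweighted mean over its CpGs. TdgWT-Th2-1st-BS-rep2 and TdgWT-Th2-1st-BS-rep3 were taken as runs of 1 library, though their titles number them as replicates. TdgKO-Th2-1st-BS-rep2 and TdgKO-Th2-1st-BS-rep3 were treated likewise. The levels of such runs were averaged and their reads added, and the number of WT libraries rests on this choice. Amplicons and guide targets were placed by matching primers and oligos to the genome.

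CpGs were compared by Fisher's exact test (two-sided) with Benjamini-Hochberg adjustment, and called at an adjusted p under 0.05 and a difference of at least 10 points. The limma fits, with 1 guide in each, used log2((C + 1)/(T + 1)). At single CpGs, intervals are Wilson for levels and Newcombe for differences. For differences between region means they are normal intervals from the binomial errors of the CpGs. Named are CpGs 27 to 29, which the study numbers for this experiment, CpGs 38 to 42, which it numbers for TET and TDG deletion, the CpG of each region with the largest and the smallest mean difference from Mock, and any CpG called lower than Mock or called between guides, of which there were none. Others were picked after their values were seen. Alternatives were other coverage minima and minimum differences, correction for C outside CpGs, CpGs at the upper limit left out, read-weighted means and, for limma, other groups or libraries in the fit. Samples of other assays and of macrophages were not analysed here. Python 3.11.15 (numpy 2.4.6, scipy 1.17.1, pandas 2.3.3, matplotlib 3.10.9) and R 4.3.3 with limma 3.58.1 were used.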

Additional observations from a re-analysis of the deposited data

Results flagged for a closer look

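CpG44 in exon 3 is listed because the guides stood on opposite sides of Mock there, at 95.5% with sgGata3-1 and 96.2% with sgGata3-2 against 95.6% in Mock, so that they differed from each other by 0.688 points. Fisher's test on reads gave an adjusted p of 3.40e-06 (Benjamini-Hochberg) between the guide libraries, and sgGata3-1 differed from Mock by only -0.0943 points (-0.355 to 0.163, Fisher p = 0.476). With 1 library each, the difference was not tested between conditions. The sgGata3-1 library is listed because 0.349% of its counts lay outside the amplified Il4 window, in positions not used here, against 0.193% in Mock and 0.149% with sgGata3-2.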

How the results depend on the processing

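No result reversed. No paired analysis was possible because the groups share only the replicate number 1. The counts of CpGs for either guide against Mock kept their size with 20 or 500 reads as the minimum, with levels corrected for C outside CpGs, and without the CpGs at the upper limit. They follow the minimum difference by construction: with 20 points 9 CpGs were called for sgGata3-1 and 7 for sgGata3-2, and with none 62 and 61. Between the guides 3 were called at a minimum of 5 points and 43 with none. Read-weighted means moved most regions, and the cause was not tested. For sgGata3-1 minus Mock they gave 8.29 points in CNS1, 12.8 in the promoter, 19.1 in exon 1, 18.4 in intron 1 and exon 2, 16.7 in HSII and 1.19 in CNS2. For sgGata3-2 minus Mock they gave 8.37, 9.33, 19.5, 14.6, 15.1 and 0.533 points in the same order. Between the guides they gave 0.0752 points in CNS1, -3.80 in intron 1 and exon 2, -1.62 in HSII and -0.655 in CNS2. A minimum of 500 reads leaves CpGs 24 to 28 of exon 1, with differences from Mock of 19.6 and 19.9 points. The limma count for sgGata3-1 was 8 with an added count of 0.5 or a minimum of 20 reads, 3 of 46 with the WT Th2 groups alone, 5 of 64 with shallow libraries left out one CpG at a time and 5 of 40 with Mock joined to the WT libraries, and for sgGata3-2 it was 0 in each. The planned limma fit with both guides as 1 group is not used in the report, because guides to one gene are not replicates of a condition. It called 10 CpGs, and 5, 6 and 5 in those last 3 settings, and 0 to 8 with 1 guide left out. The cause was not tested. Each group has a single library, so the tests cannot separate an effect of the guides from variation between cultures, Mock lies low among WT libraries in CNS1, intron 1 and exon 2 and HSII, and the loss of GATA3 was not measured in these data.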
